A study of Mus musculus and Rattus norvegicus with 51 samples.

Results

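Wnt signals and targets of liver zonation were followed as 10 genes in RNA sequencing of whole mouse liver. The genes were the ligands Wnt2 and Wnt9b, the agonist Rspo3, the receptor Lgr5, the ubiquitin ligases Znrf3 and Rnf43, the feedback genes Axin2 and Nkd1, and the transcription factors Tbx3 and Tcf7. They were looked up by symbol in the 2 liver count tables, and all 10 were present among 24982 genes in the table of CCl4 and MO livers and 24421 genes in the table of fibrotic and resolving livers. All 10 also passed the filter on low counts, which left 14129 and 13487 genes to be tested. Levels are given as CPM, a gene's counts scaled to a common library size after TMM normalisation, and a gene was called when its Benjamini-Hochberg adjusted p in edgeR's quasi-likelihood test, taken over all genes tested, was under 0.05. Where groups are said not to overlap, this describes the libraries shown. The share of all genes whose groups did not overlap was not counted.

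The study asked how forms of HMGB1, a nuclear DNA-binding protein that injured cells release, bear on liver fibrosis and its resolution. All livers came from male mice. In the first table, every group was taken at 4 weeks. Livers of the genotype Hmgb1ΔHepΔMye with Δ[O] HMGB1 received CCl4 (n = 4) or MO (n = 3), livers of the same genotype with WT HMGB1 received CCl4 (n = 4) or MO (n = 3), and wild-type livers received CCl4 (n = 4) or MO (n = 3). CCl4 is carbon tetrachloride, a toxin activated by the pericentral enzyme Cyp2e1, and MO is the injection given in its place, which the labels do not spell out. In the second table, all livers were wild type and had 4 weeks of CCl4. Of these, 3 groups then regressed for 1 week and carry the labels HMGB1 Ab, [SO3] HMGB1 or BSA, and 3 groups were taken at fibrosis with [O] HMGB1, [H] HMGB1 or BSA, with n = 3 in each of the 6. Hmgb1ΔHepΔMye livers are called KO livers here. They differ from wild-type livers both in the deletion and in the HMGB1 construct they carry, so those cannot be told apart, and the deposit names the vector AAV8 without saying which groups received it. The labels give no age, strain or Cre driver. Nothing in them ties a numbered sample to an animal of its own, and the p-values here therefore reflect variation among samples that could be technical. A count of livers below is a count of libraries.

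In the canonical Wnt pathway, ligands bind Frizzled receptors with Lrp5 or Lrp6, β-catenin accumulates, and TCF/LEF factors switch on targets, among them Axin2, Lgr5, Nkd1, Tbx3, Znrf3, Rnf43 and Tcf7 itself. R-spondins such as Rspo3 bind Lgr receptors and remove Znrf3 and Rnf43, which otherwise clear Frizzled from the cell surface. In liver, endothelial cells around the central vein are the known source of Wnt2, Wnt9b and Rspo3, and the signal keeps pericentral hepatocytes in their state, with glutamine synthetase (Glul), Cyp2e1 and Cyp1a2 as marker genes.

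Promoters are shown for genes whose levels moved in the comparisons that follow, so that their sequence can be set beside a pericentral gene. RefSeq promoter windows of build GRCm38.p6, running from 250 bases before to 50 after a transcription start, were found for 6 of the 10 genes, with 8 windows in all since Rnf43 and Tcf7 had 2 starts each. Rspo3, Lgr5, Znrf3 and Tbx3 had no entry. The core TCF/LEF motif CTTTGA was searched on both strands, where its reverse complement reads TCAAAG. It was held by 0 of these 8 windows, by 6 of the 11 windows found for 14 pericentral genes, and by 16.0% of all 32851 windows in the table. The windows also differ in base composition, with 44.3% to 76.3% GC in these 8 and a median of 52.7% over all windows, so the shares are not like for like. Such a match is a string of letters and not a shown binding site, and its absence says only that these letters are not in the window. Capitals mark the motif in the Cyp2e1 window, and the other windows hold none. In the Tcf7 window printed here, an ATG opens a reading frame that has no stop to the window's end. Part of that window may thus be coding sequence rather than promoter, and it is counted among the 8. The windows are the upstream of the Rnf43 starts at chr11:87662837-87663136 on the plus strand, Nkd1 at chr8:88527383-88527682 on the plus strand, the upstream of the Tcf7 starts at chr11:52282965-52283264 on the minus strand, and Cyp2e1 at chr7:140763569-140763868 on the plus strand.
Rnf43: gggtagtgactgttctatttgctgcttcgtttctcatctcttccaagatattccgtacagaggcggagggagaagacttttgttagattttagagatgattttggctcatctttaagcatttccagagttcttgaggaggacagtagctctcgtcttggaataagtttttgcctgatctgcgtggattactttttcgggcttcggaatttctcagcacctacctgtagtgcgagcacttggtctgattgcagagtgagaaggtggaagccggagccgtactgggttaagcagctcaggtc
Nkd1: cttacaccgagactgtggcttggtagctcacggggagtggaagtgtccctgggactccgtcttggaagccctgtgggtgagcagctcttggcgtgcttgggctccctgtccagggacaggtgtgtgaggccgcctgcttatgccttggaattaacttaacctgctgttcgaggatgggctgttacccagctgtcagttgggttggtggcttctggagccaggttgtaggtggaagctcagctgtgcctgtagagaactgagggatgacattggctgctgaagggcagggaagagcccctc
Tcf7: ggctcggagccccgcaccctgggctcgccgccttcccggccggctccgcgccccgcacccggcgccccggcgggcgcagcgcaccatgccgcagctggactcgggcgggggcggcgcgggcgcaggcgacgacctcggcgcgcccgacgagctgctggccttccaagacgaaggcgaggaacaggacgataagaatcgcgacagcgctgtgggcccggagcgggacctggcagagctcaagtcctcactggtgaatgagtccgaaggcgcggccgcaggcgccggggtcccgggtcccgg
Cyp2e1: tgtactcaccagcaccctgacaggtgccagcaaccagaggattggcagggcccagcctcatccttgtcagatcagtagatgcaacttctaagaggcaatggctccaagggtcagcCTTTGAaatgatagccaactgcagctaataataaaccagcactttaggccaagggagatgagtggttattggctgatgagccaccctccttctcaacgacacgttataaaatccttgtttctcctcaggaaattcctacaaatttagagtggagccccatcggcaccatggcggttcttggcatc

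Libraries of CCl4 and MO livers held between 22598631 and 39323123 gene counts, and those of fibrotic and resolving livers between 8355714 and 16327132. The 3 wild-type MO libraries stood apart in TMM factor, at 0.754 to 0.810 against 0.895 to 1.22 in the other 18 libraries of their table, and in reads ambiguous between genes, at 1.31% to 1.66% against 0.579% to 0.902%. Every comparison of wild-type MO liver rests on them. The tissue label held in all 39 libraries. The 8 hepatocyte genes summed to between 85192 and 170360.0 CPM in CCl4 and MO livers. In fibrotic and resolving livers they summed to between 21917 and 37859 CPM, so CPM levels are not like for like between the 2 tables. Hmgb1 was 131 to 215 CPM in KO livers with Δ[O] HMGB1 under MO and 63.9 to 74.7 CPM in KO livers with WT HMGB1 under MO, against 72.8 to 77.3 CPM in wild-type MO livers. The KO livers with Δ[O] HMGB1 thus lay above wild-type livers under MO and those with WT HMGB1 overlapped them, and both KO groups also carry a construct. Among fibrotic livers, [H] HMGB1 replicate 3 held 1036 CPM of Glul, 3068 CPM of Cyp2e1 and 259.9 CPM of Slc1a2, a pericentral glutamate transporter, levels within the range of the resolving livers for Glul and Cyp2e1 and above it for Slc1a2. The BSA replicates also differed from each other, with 523 CPM of the bile duct gene Sox9 in replicate 2 and 246 CPM of the proliferation gene Mki67 in replicate 3, against 26.8 and 23.3 CPM in replicate 1.

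Compared per kilobase of exon, Tcf7 and Rnf43 had the highest medians of the 10 genes over all libraries of a table, but the order differed between groups. Across the 21 CCl4 and MO livers the median level was 3.28 CPM per kb for Tcf7, 3.12 for Rnf43, 1.65 for Rspo3, 1.55 for Tbx3, 1.48 for both Znrf3 and Axin2, 1.01 for Nkd1, 0.867 for Wnt2, 0.331 for Wnt9b and 0.217 for Lgr5. Under MO, Tbx3 had the highest mean, with 8.01 CPM per kb in KO livers with Δ[O] HMGB1, 7.55 in KO livers with WT HMGB1 and 3.84 in wild-type livers, where Tcf7 had 3.10, 4.18 and 1.36. In wild-type MO livers the mean of Lgr5 (0.261) was also above that of Wnt9b (0.207). In the 18 fibrotic and resolving livers Tcf7 and Rnf43 again had the highest medians, with medians of 4.46 and 4.41 CPM per kb, and Lgr5 and Wnt9b again the lowest, at 0.812 and 0.590, while Tbx3 had the highest mean, 8.09 CPM per kb, in resolving livers with [SO3] HMGB1. Counts behind these levels were small for the ligands: the lowest library held 15 counts of Wnt9b and 23 of Wnt2 in the first table, and 9 and 13 in the second.

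After 4 weeks of CCl4, Tbx3 was lower in all 3 pairs of groups and Lgr5 in both KO groups, while most of the other Wnt genes had levels that overlapped those of MO livers. Under CCl4, 3 of the 10 genes were called in KO livers with Δ[O] HMGB1 (Lgr5, Tbx3 and Rnf43, all lower), against 24.2% of all genes tested. In KO livers with WT HMGB1, 2 were called (Lgr5 and Tbx3, both lower), against 47.3% of all genes. In wild-type livers, 3 were called (Tcf7 higher, Tbx3 and Wnt2 lower), against 46.3%. The median log2 fold change of the 10 genes was -0.33, -0.08 and -0.13 in that order, beside -0.04, -0.03 and -0.00 over all genes tested, and the share of the 10 that was called was no larger than the share of all genes except in KO livers with Δ[O] HMGB1.

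**Figure D1:**
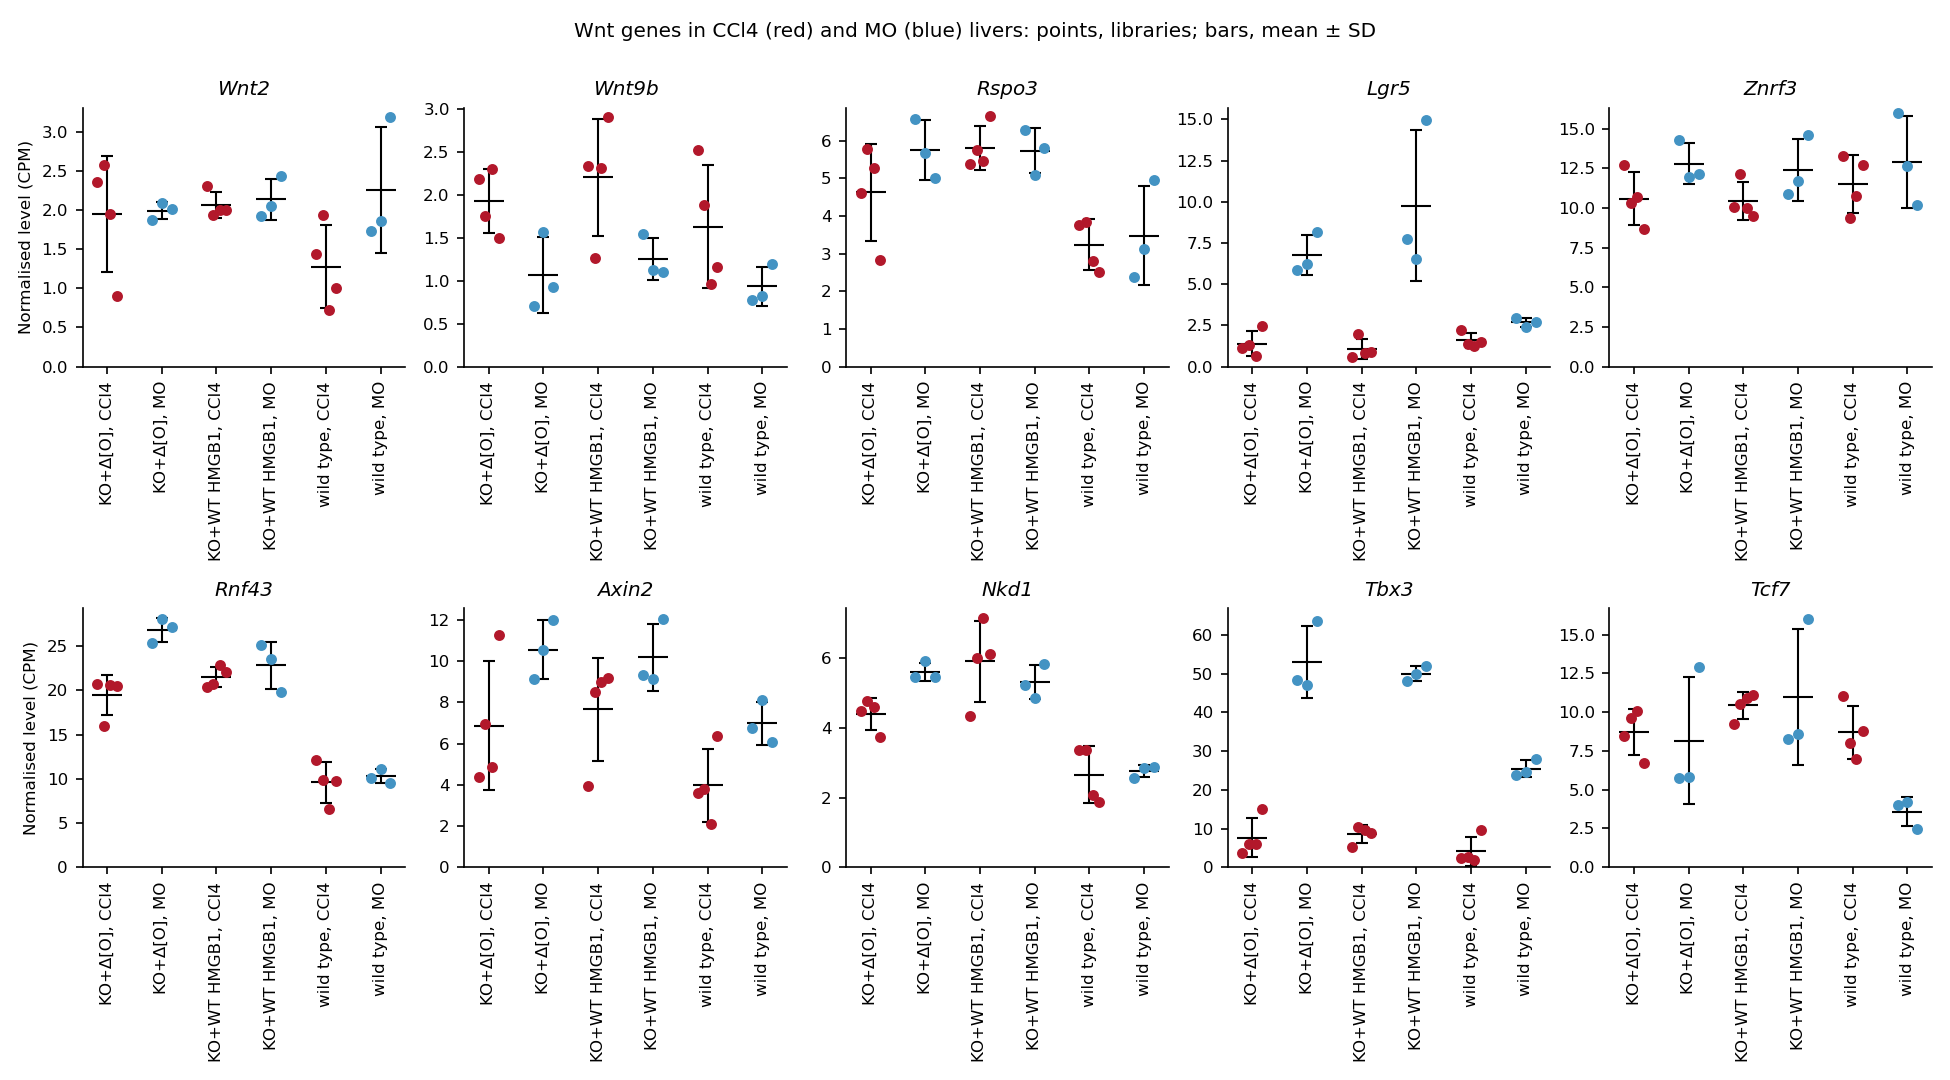
Normalised level (CPM, linear axis from 0) of each of the 10 genes in the 21 CCl4 and MO livers, with 1 point per library and bars for mean ± SD. Tbx3 sits lower under CCl4 (red) than under MO (blue) in each pair of groups with no overlap, and Rnf43 and Nkd1 sit higher in every KO library than in any wild-type library.

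Of the ligands and the agonist, Wnt2 was called lower with CCl4 in wild-type livers, and Wnt9b and Rspo3 were not called by edgeR. Wnt2 held 1.44, 1.94, 0.725 and 1.01 CPM in wild-type CCl4 livers, against 1.73, 1.86 and 3.19 CPM in wild-type MO livers. The groups overlapped, and the call was marginal (log2 fold change -0.81, SE 0.32, adjusted p = 0.0448). It was lost with RLE factors (adjusted p = 0.0553), with no filter (0.0560), with only these groups in the fit (0.116), and without MO replicate 3 (0.299) or CCl4 replicate 1 (0.0572), 3 (0.127) or 4 (0.119). In KO livers Wnt2 averaged 1.95 ± 0.743 CPM under CCl4 and 1.99 ± 0.107 CPM under MO with Δ[O] HMGB1, and 2.06 ± 0.167 CPM under CCl4 and 2.14 ± 0.265 CPM under MO with WT HMGB1 (SD, n = 4 and 3). Wnt9b had a similar positive estimate in each of the 3 pairs of groups without passing the test in edgeR. Its log2 fold change was 0.87 with Δ[O] HMGB1, 0.81 with WT HMGB1 and 0.81 in wild type, with adjusted p = 0.0759, 0.0589 and 0.0767 from edgeR. DESeq2 called it in KO livers with Δ[O] HMGB1 (adjusted p = 0.0451) and with WT HMGB1 (0.0413). Leaving out 1 library also brought Wnt9b past the threshold in edgeR: MO replicate 2 with Δ[O] HMGB1 (adjusted p = 0.0409), CCl4 replicate 3 with WT HMGB1 (0.0208), and CCl4 replicate 3 (0.0319) or 4 (0.0366) in wild type. Rspo3 averaged 4.63 ± 1.29, 5.81 ± 0.584 and 3.23 ± 0.679 CPM under CCl4 in KO livers with Δ[O] HMGB1, KO livers with WT HMGB1 and wild-type livers, against 5.75 ± 0.795, 5.73 ± 0.596 and 3.48 ± 1.32 CPM under MO in the same order (SD, n = 4 and 3). No Rspo3 difference passed the test, with adjusted p = 0.364, 0.956 and 0.766.

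Lgr5, the R-spondin receptor, gave the largest fold change of the 10 genes in KO livers with WT HMGB1. There it held 0.608, 1.97, 0.851 and 0.906 CPM under CCl4, against 7.75, 6.52 and 15 CPM under MO. No CCl4 library reached the lowest MO library, and the mean was 9.01-fold lower (log2 fold change -3.15, SE 0.39, adjusted p = 5.26e-06). With Δ[O] HMGB1 it held 1.15, 1.29, 0.661 and 2.44 CPM under CCl4, against 5.88, 6.23 and 8.16 CPM under MO. These groups did not overlap, and the mean was 4.87-fold lower (log2 fold change -2.31, SE 0.38, adjusted p = 0.000247). In wild-type livers Lgr5 held 2.22, 1.36, 1.25 and 1.49 CPM under CCl4, against 2.92, 2.40 and 2.73 CPM under MO. These groups did not overlap either, but the level under MO was already low and the difference did not pass the test (log2 fold change -0.76, SE 0.39, adjusted p = 0.121); a fit of these 2 groups alone called it (adjusted p = 0.0486).

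The ubiquitin ligases showed small estimates. Znrf3 had log2 fold changes of -0.27, -0.25 and -0.17 in KO livers with Δ[O] HMGB1, KO livers with WT HMGB1 and wild-type livers, with adjusted p = 0.250, 0.222 and 0.440, and its fold under CCl4 had 95% intervals of 0.661 to 1.04, 0.670 to 1.05 and 0.710 to 1.12. Rnf43 held 20.7, 16.0, 20.6 and 20.5 CPM under CCl4 in KO livers with Δ[O] HMGB1, against 25.4, 28.0 and 27.1 CPM under MO. All 4 CCl4 libraries lay below the 3 MO libraries (log2 fold change -0.47, SE 0.15, adjusted p = 0.0263), though the call was lost without MO replicate 2 (adjusted p = 0.0959) or 3 (0.0643) and without CCl4 replicate 2 (0.114) or 3 (0.0523). In KO livers with WT HMGB1 and in wild-type livers the Rnf43 log2 fold changes were -0.09 and -0.10, with adjusted p = 0.662 and 0.628.

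Axin2, a scaffold of the β-catenin destruction complex and a standard readout of Wnt signalling, had lower means under CCl4 in each pair of groups without passing the test in edgeR. It held 4.40, 6.94, 4.86 and 11.3 CPM under CCl4 with Δ[O] HMGB1, against 9.14, 10.5 and 12.0 CPM under MO. With WT HMGB1 it held 3.92, 8.53, 9.01 and 9.19 CPM under CCl4, against 9.33, 9.16 and 12.1 CPM under MO. In wild-type livers it held 3.61, 3.80, 2.12 and 6.39 CPM under CCl4, against 6.75, 8.14 and 6.10 CPM under MO. The groups overlapped in each pair, and the log2 fold changes were -0.63, -0.41 and -0.82 with adjusted p = 0.178, 0.319 and 0.0566 from edgeR. DESeq2 called Axin2 in wild type (log2 fold change -0.79, adjusted p = 0.0446). The edgeR call changed with 1 library in 2 of the pairs: without CCl4 replicate 5 the log2 fold change with Δ[O] HMGB1 was -0.97 (adjusted p = 0.0271), and without CCl4 replicate 4 it was -1.08 in wild type (0.0120). Nkd1, an inhibitor of Dishevelled, had log2 fold changes of -0.35, 0.15 and -0.04, with adjusted p = 0.209, 0.544 and 0.893. With Δ[O] HMGB1 its CCl4 values of 4.49, 4.76, 4.60 and 3.74 CPM all lay below its MO values of 5.46, 5.91 and 5.47 CPM.

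Tbx3, a transcription factor and known β-catenin target of pericentral hepatocytes, fell under CCl4 in KO livers with either construct and in wild-type livers. With Δ[O] HMGB1 it held 3.55, 5.95, 6.00 and 15.1 CPM under CCl4, against 48.5, 47.0 and 63.7 CPM under MO. With WT HMGB1 it held 5.14, 10.3, 9.63 and 8.90 CPM under CCl4, against 48.2, 50 and 52.0 CPM under MO. In wild-type livers it held 2.31, 2.58, 1.83 and 9.56 CPM under CCl4, against 23.8, 24.6 and 27.9 CPM under MO. No CCl4 library reached an MO library of its pair, and the means were 6.93-fold, 5.90-fold and 6.26-fold lower. The log2 fold changes were -2.81 (SE 0.47), -2.56 (SE 0.47) and -2.67 (SE 0.49), with adjusted p = 0.000421, 0.000296 and 0.000256 from edgeR. Without wild-type CCl4 replicate 4, the highest of its group, the wild-type value was -3.45. Tcf7, a TCF/LEF factor that T cells also express, held 11.0, 8.03, 6.99 and 8.77 CPM in wild-type CCl4 livers, against 4.03, 4.21 and 2.49 CPM in wild-type MO livers. Every wild-type CCl4 library exceeded every MO library, and the mean was 2.43-fold higher (log2 fold change 1.28, SE 0.29, adjusted p = 0.00147). In KO livers Tcf7 held 8.43, 9.62, 10.1 and 6.74 CPM under CCl4 and 5.77, 5.79 and 12.9 CPM under MO with Δ[O] HMGB1, and 9.21, 10.5, 10.9 and 11.1 CPM under CCl4 and 8.25, 8.61 and 16.0 CPM under MO with WT HMGB1. These overlapped, with MO replicate 3 the highest library in both KO groups, and the log2 fold changes were 0.09 and -0.08 (adjusted p = 0.839 and 0.833).

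**Figure D2:**
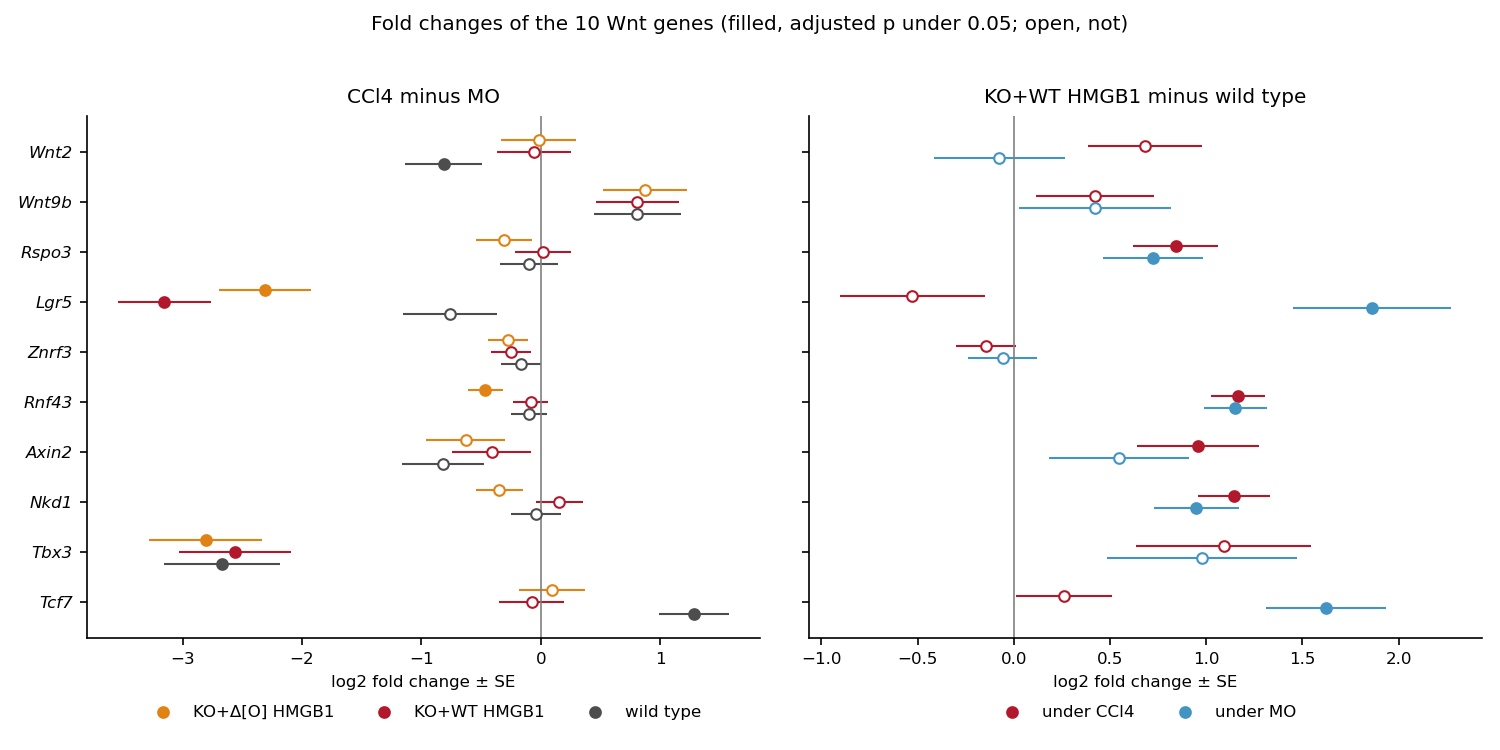
Log2 fold changes ± SE of the 10 genes for CCl4 minus MO in KO livers with Δ[O] HMGB1, KO livers with WT HMGB1 and wild-type livers (left) and for KO livers with WT HMGB1 minus wild-type livers under CCl4 and under MO (right), with filled points for an adjusted p under 0.05. Tbx3 lies below -2 in all 3 on the left, and Rspo3, Rnf43 and Nkd1 are filled in both conditions on the right.

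Pericentral hepatocyte genes fell in the same livers. Over all genes tested, 24.2%, 47.3% and 46.3% were called in either direction, in the order of groups used next. Of 14 such genes, 13 were called lower in KO livers with Δ[O] HMGB1, 13 in KO livers with WT HMGB1 and 12 in wild-type livers, with median log2 fold changes of -2.33, -2.63 and -4.12. Glul averaged 55.4 ± 19.2 CPM in wild-type CCl4 livers and 1515 ± 220.5 CPM in wild-type MO livers (SD, n = 4 and 3; log2 fold change -4.77). Cyp2e1, which activates CCl4, averaged 465 ± 487 and 11562 ± 1351 CPM in the same groups (log2 fold change -4.64). Oat, a pericentral aminotransferase, fell by 4.59, 4.98 and 4.66 on the log2 scale, and Cyp1a2, a pericentral drug-metabolising enzyme, by 1.27, 1.48 and 1.52, in KO livers with Δ[O] HMGB1, KO livers with WT HMGB1 and wild-type livers. Periportal genes split: of 15, 2 were called higher and 0 lower in KO livers with Δ[O] HMGB1, 2 higher and 4 lower in KO livers with WT HMGB1, and 2 higher and 8 lower in wild-type livers. Cyp2f2, a periportal enzyme, had log2 fold changes of -0.54, -0.78 and -0.96 in that order (adjusted p = 0.168, 0.0266 and 0.00823). In bulk RNA, fewer cells of a type and less RNA per cell cannot be told apart.

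Within the CCl4 groups of the first table, Tbx3 and Axin2 ranked partly as Cyp2e1 did. KO replicate 5 with Δ[O] HMGB1 held 1181 CPM of Cyp2e1, 15.1 of Tbx3 and 11.3 of Axin2, the highest of its 4 libraries for each gene, and wild-type replicate 4 held 1193, 9.56 and 6.39 CPM, again the highest of 4 for each. Cyp2e1 in the other 3 libraries was 355, 561 and 315 CPM with Δ[O] HMGB1, and 235, 262 and 170.2 CPM in wild type. In KO livers with WT HMGB1, replicate 1 was the lowest of 4 for each gene, with 197 CPM of Cyp2e1, 5.14 of Tbx3 and 3.92 of Axin2. Glul, another pericentral gene, followed this only in part. With Δ[O] HMGB1 it was lowest in replicate 5, at 56.2 CPM against 68.6 to 89.4 CPM in the others. It was highest in wild-type replicate 4 (82.7 CPM, others 39.2 to 53.9) and lowest in replicate 1 with WT HMGB1 (84.3 CPM, others 84.5 to 91.4). Without replicate 5, 4 of the 10 genes were called under CCl4 with Δ[O] HMGB1 (all genes, 4039, against 3425 with it), and without replicate 4, 4 were called in wild type (all genes, 6707, against 6542). Among fibrotic livers of the second table, replicate 3 was the highest for Cyp2e1, Tbx3 and Axin2 with [O] HMGB1 and with [H] HMGB1. With BSA, replicate 2 held the most Cyp2e1 (1267 CPM, others 369 and 880) but the least Tbx3 and Axin2 (1.11 and 4.13 CPM).

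**Figure D3:**
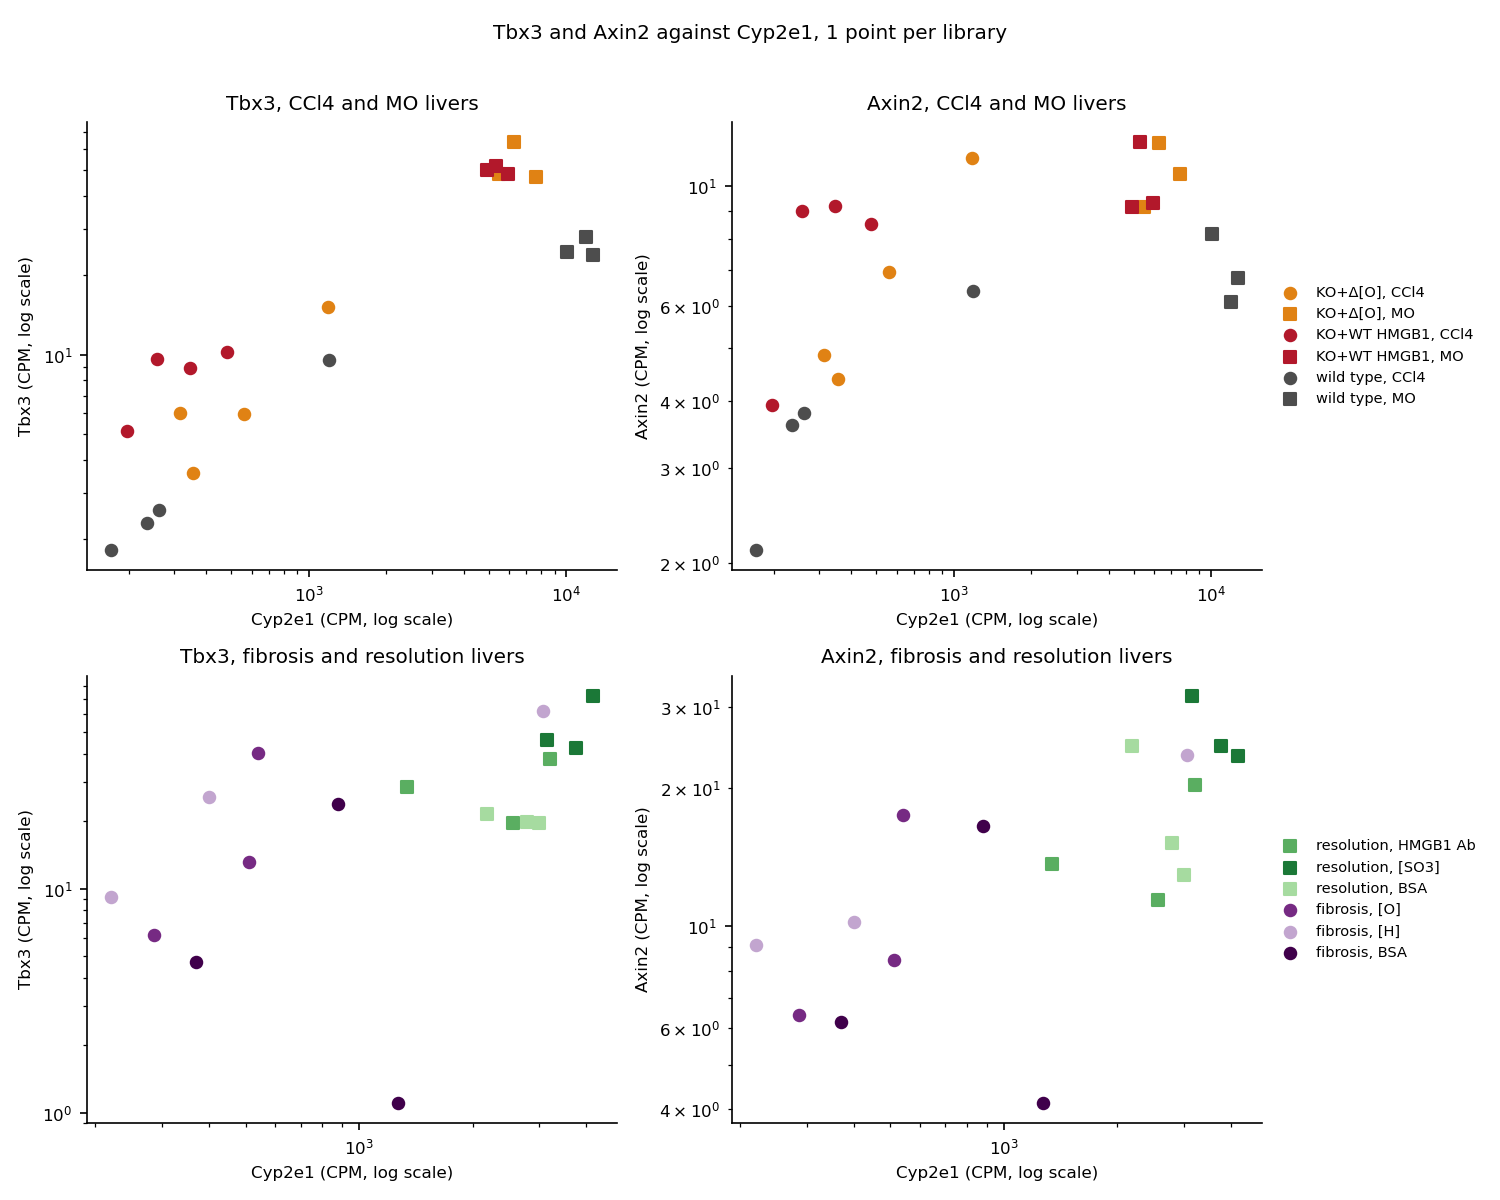
Levels of Tbx3 (left) and Axin2 (right) against Cyp2e1, all in CPM on log axes, with 1 point per library, for CCl4 and MO livers (top) and resolving and fibrotic livers (bottom). MO livers lie at high Cyp2e1 with high Tbx3, and fibrotic BSA replicate 2 lies far below the other resolving and fibrotic livers in Tbx3, at 1.11 CPM.

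Other genes of the pathway were called in both directions with CCl4. Over all genes tested, 24.2%, 47.3% and 46.3% were called in KO livers with Δ[O] HMGB1, KO livers with WT HMGB1 and wild-type livers. Among 8 tested ligands and secretion genes of 22 listed, 2 were called higher and 2 lower in KO livers with Δ[O] HMGB1, and 2 higher and 3 lower in KO livers with WT HMGB1 and in wild-type livers. Wnt5a, a mainly non-canonical ligand, rose in all 3, with log2 fold changes of 1.25, 1.39 and 1.89, and Porcn, the acyltransferase that readies Wnt proteins for secretion, fell by 1.02, 1.61 and 1.06 on the log2 scale. Of 13 tested receptors of 17 listed, 0, 4 and 4 were called higher and 0, 2 and 5 lower in KO livers with Δ[O] HMGB1, KO livers with WT HMGB1 and wild-type livers. Of 7 tested secreted inhibitors of 14 listed, 3, 2 and 3 were called higher and 1, 1 and 2 lower in that order. Frzb, a secreted Frizzled-like inhibitor, rose by 1.79, 2.66 and 3.20, and Notum, a hepatocyte Wnt deacylase, fell by 0.90 and 0.83 in the KO groups with Δ[O] HMGB1 and WT HMGB1. Dkk4, an inhibitor that is itself a Wnt target, fell by 4.91 in wild-type livers. Of 20 tested intracellular genes of 21 listed, 1, 1 and 2 were called higher and 0, 2 and 2 lower. Ctnnb1, which encodes β-catenin, gave log2 fold changes of -0.03, 0.17 and 0.19 (adjusted p = 0.899, 0.354 and 0.283).

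**Figure D4:**
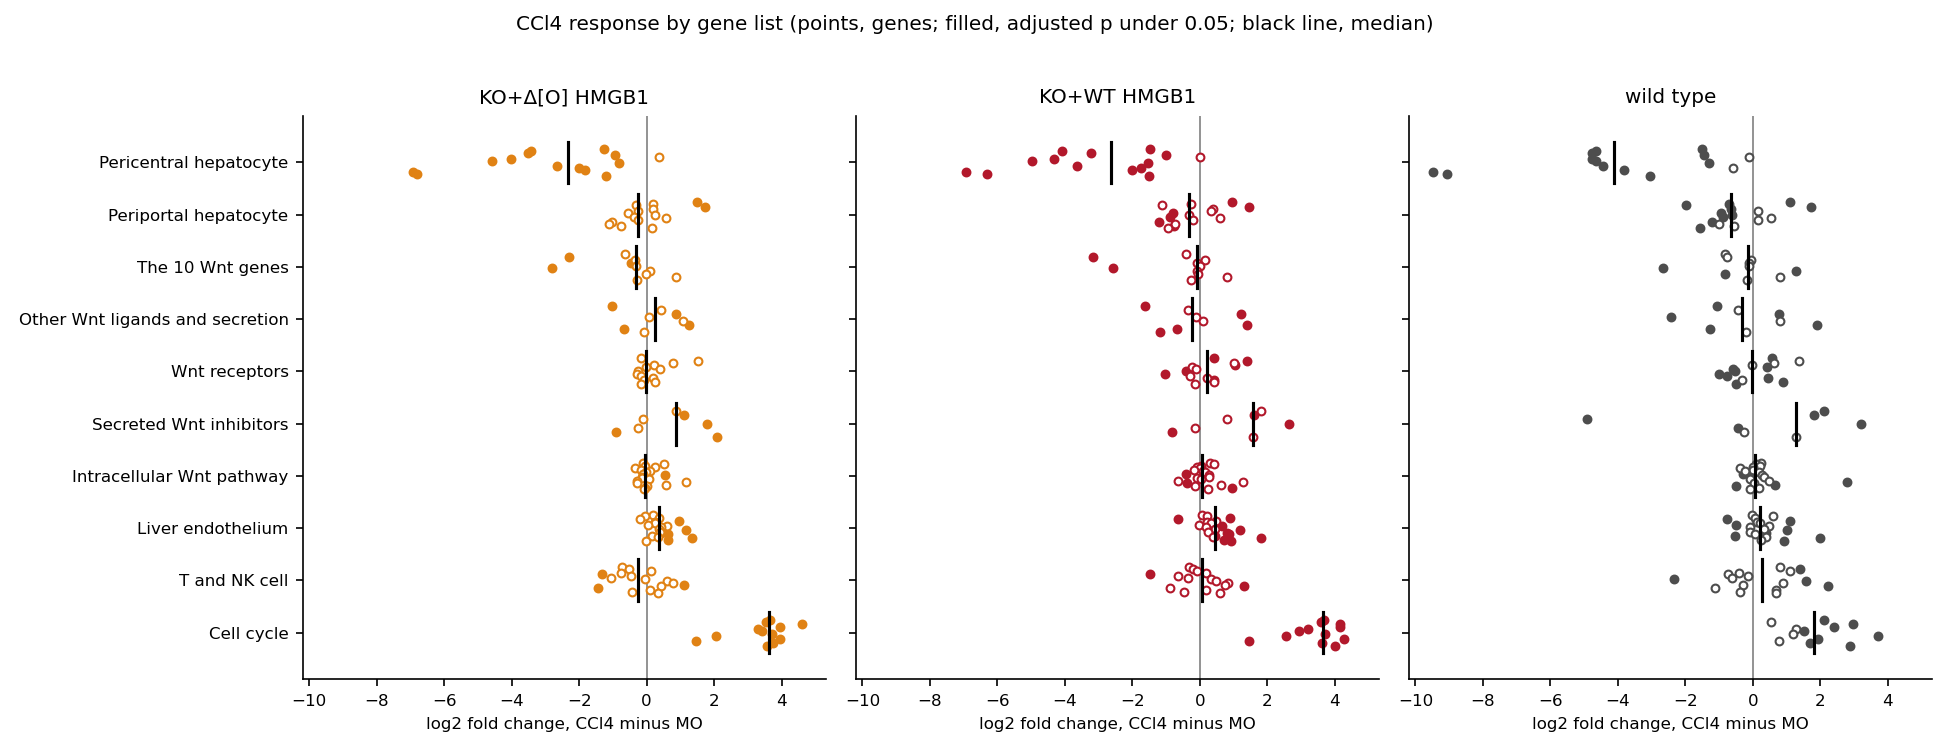
Log2 fold changes, CCl4 minus MO, of the tested genes of each list in KO livers with Δ[O] HMGB1, KO livers with WT HMGB1 and wild-type livers, with filled points for an adjusted p under 0.05 and a black line at each list's median. The pericentral list lies far to the left, the cell cycle list to the right, and the 10 Wnt genes have a median near 0 with Tbx3, and Lgr5 in the KO groups, as the low points.

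Some markers of other cells were called in the same comparisons, beside the same 24.2%, 47.3% and 46.3% of all genes tested. Liver endothelium, which includes the source of Wnt2, Wnt9b and Rspo3, had 6, 9 and 5 of 20 genes called higher and 0, 1 and 3 lower in KO livers with Δ[O] HMGB1, KO livers with WT HMGB1 and wild-type livers, and its summed level was 278 to 348 CPM in wild-type CCl4 livers and 222 to 337 CPM in wild-type MO livers. T and NK cell genes, of interest beside Tcf7, had 3 of 16 called higher and 1 lower in wild-type CCl4 livers, with a summed level of 9.15 to 11.9 CPM, against 9.05 to 12.0 CPM in MO livers. Their defining gene Cd3e held 0.570, 0.332, 0.290 and 0.635 CPM in wild-type CCl4 livers, against 0.411, 0.328 and 0.739 CPM in MO livers, with overlap, and none of the 16 was at 0 in every library. Of 5 B cell genes, 4 were called higher in wild-type CCl4 livers, at a summed 3.57 to 5.60 CPM, against 2.03 to 2.18 CPM in MO livers. Cell cycle genes rose, with 12, 12 and 8 of 12 called higher in the order above. The part of these cells in the changes of the 10 genes was not tested.

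KO livers with WT HMGB1 held more of several Wnt genes than wild-type livers, both under CCl4 and under MO. Under CCl4, 4 of the 10 genes were called, all higher (Rspo3, Rnf43, Axin2 and Nkd1), against 28.8% of all genes called and 15.8% called higher. Under MO, 5 were called, all higher (Rspo3, Lgr5, Rnf43, Nkd1 and Tcf7), against 24.2% of all genes called and 12.7% called higher. The median log2 fold change of the 10 genes was 0.76 under CCl4 and 0.84 under MO, beside 0.02 and 0.03 over all genes. These livers share wild-type and KO libraries with the CCl4 comparisons above.

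Rnf43 had the lowest adjusted p of the 10 genes in both conditions. It held 20.4, 20.7, 22.9 and 22.1 CPM in KO livers with WT HMGB1 under CCl4, against 12.2, 9.86, 6.61 and 9.71 CPM in wild-type CCl4 livers. Under MO it held 25.1, 23.5 and 19.9 CPM in KO livers with WT HMGB1, against 10.1, 11.1 and 9.56 CPM in wild-type livers. The groups did not overlap in either condition, and the means were 2.24-fold (log2 fold change 1.16, SE 0.14, adjusted p = 8.58e-06) and 2.22-fold higher (log2 fold change 1.15, SE 0.16, adjusted p = 4.70e-05). Nkd1 held 4.35, 6.00, 7.16 and 6.12 CPM in KO livers with WT HMGB1 under CCl4, against 3.36, 3.35, 2.06 and 1.87 CPM in wild-type livers. It held 5.24, 4.85 and 5.82 CPM in KO livers with WT HMGB1 under MO, against 2.55, 2.84 and 2.86 CPM in wild-type livers. It too did not overlap between these groups, and was 2.22-fold higher under CCl4 (adjusted p = 0.000151) and 1.93-fold higher under MO (0.00378).

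Rspo3, the agonist, held 5.38, 5.76, 5.46 and 6.66 CPM in KO livers with WT HMGB1 under CCl4, against 3.77, 3.85, 2.81 and 2.50 CPM in wild-type livers. These did not overlap (log2 fold change 0.84, SE 0.22, adjusted p = 0.00714). Under MO it held 6.28, 5.10 and 5.82 CPM in KO livers, against 2.39, 3.11 and 4.94 CPM in wild-type livers. Here the call was marginal (log2 fold change 0.72, SE 0.26, adjusted p = 0.0482): adjusted p was 0.0564 with no filter, 0.0928 with only these groups in the fit, 0.226 and 0.147 without wild-type replicate 1 or 2, and 0.127, 0.0612 and 0.0831 without KO replicate 1, 2 or 3. Axin2 was 1.93-fold higher under CCl4 with overlapping groups (log2 fold change 0.96, SE 0.32, adjusted p = 0.0288). That call was lost with only these groups in the fit (adjusted p = 0.0574), without wild-type replicate 1 (0.0658), 2 (0.0620) or 3 (0.0901) and without KO replicate 3 (0.0598), 4 (0.0701) or 5 (0.0746). Under MO the Axin2 estimate was 0.55 (adjusted p = 0.292).

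Tbx3 also differed in mean between these groups. Under MO it held the values given above, which did not overlap, with a mean 1.97-fold higher in KO livers with WT HMGB1 (log2 fold change 0.98, SE 0.49, adjusted p = 0.164), and a fit of these 2 groups alone called it (adjusted p = 0.00154). Under CCl4 its log2 fold change was 1.09 (SE 0.45, adjusted p = 0.0813); without wild-type replicate 4 it was 1.89 (adjusted p = 0.00127). With a block for the replicate number, Tbx3 was called under CCl4 (log2 fold change 1.07, adjusted p = 0.0151), as was Wnt2 (0.93, 0.0306). This made 6 of the 10 genes where the block called 4414 of all genes and the fit without it 4069. The numbers were taken to pair these samples from r of 0.116 to 0.313 in the same expression data, with 2 of 3 pairs correlating best with their own number. The block was also fitted over groups whose numbers did not go together, with r of -0.231 to -0.0943 between these genotypes under MO. The added calls are therefore no separate support. Pairing is not named in the labels. Wnt2 held 2.31, 1.94, 2.00 and 2.00 CPM in KO livers with WT HMGB1 under CCl4, against 1.44, 1.94, 0.725 and 1.01 CPM in wild-type livers. The lowest KO library and the highest wild-type library were both at 1.94 CPM, and the log2 fold change without the block was 0.68 (adjusted p = 0.0898, and 0.0317 without wild-type replicate 2).

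Other Wnt genes were called between these groups in both directions, beside 28.8% of all genes tested under CCl4 and 24.2% under MO. Under CCl4, 1 of 8 tested ligands and secretion genes was called higher and 2 lower, 2 of 13 receptors higher and 0 lower, and 0 of 20 intracellular genes higher and 1 lower. Of 7 inhibitors, 0 were called by edgeR, with 2 at an unadjusted p under 0.05. Wls, the carrier of Wnt proteins to the cell surface, rose by 0.76 on the log2 scale, Porcn and Wnt9a fell by 1.19 and 1.07, and the receptors Fzd4 and Fzd7 rose by 0.85 and 0.61. Under MO, 0 ligands and secretion genes were called higher and 1 lower, 2 receptors higher and 2 lower, 1 inhibitor higher and 1 lower, and 1 intracellular gene higher and 0 lower. Wnt5b fell by 1.09, the co-receptors Lrp6 and Ryk fell by 0.66 and 0.55, and Fzd5 and Fzd7 rose by 0.57 and 0.49. The inhibitor Notum rose by 0.66, and Dkk4 fell by 4.40. Ctnnb1 gave log2 fold changes of -0.07 under CCl4 and -0.05 under MO (adjusted p = 0.710 and 0.857).

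Lgr5 and Tcf7 differed between these groups under MO and in how they responded to CCl4. Lgr5 was 3.63-fold higher in KO livers with WT HMGB1 than in wild-type livers under MO (log2 fold change 1.86, SE 0.41, adjusted p = 0.00254), and its log2 fold change under CCl4 was -0.53 (adjusted p = 0.313). Tcf7 was 3.06-fold higher under MO (log2 fold change 1.62, SE 0.31, adjusted p = 0.000769), and its log2 fold change under CCl4 was 0.26 (adjusted p = 0.467). Tested directly, the response to CCl4 in KO livers with WT HMGB1 minus that in wild-type livers was -2.39 for Lgr5 (SE 0.55, adjusted p = 0.00757) and -1.36 for Tcf7 (SE 0.40, adjusted p = 0.0275). These were 2 of the 10 genes, against 13.5% of all genes. The Tcf7 difference had adjusted p = 0.0711 without wild-type MO replicate 3, 0.0562 without wild-type CCl4 replicate 1 and 0.0808 without KO MO replicate 3. For Lgr5 the order of group means, from high to low, was KO with WT HMGB1 under MO, KO with Δ[O] HMGB1 under MO, wild type under MO, wild type under CCl4, KO with Δ[O] HMGB1 under CCl4 and KO with WT HMGB1 under CCl4, where the 2 KO groups under MO overlapped, as did the 3 groups under CCl4, and wild type under MO lay apart from its neighbours.

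Some cell markers were also called between these groups, beside 15.8% of all genes tested called higher under CCl4 and 12.7% under MO. Under CCl4, KO livers with WT HMGB1 had 11 of 20 liver endothelium genes called higher, at a summed 424 to 512 CPM, against 278 to 348 CPM in wild-type livers. The endothelial genes Cdh5 and Stab2 rose by 1.16 and 1.03 on the log2 scale. Also called higher were 8 of 17 stellate cell genes, 9 of 12 macrophage genes, 5 of 16 T and NK cell genes and 10 of 12 cell cycle genes. Under MO, 2 of 20 endothelium genes, 4 of 5 B cell genes and 5 of 16 T and NK cell genes were called higher, with 1 T and NK cell gene (Cd4) lower. T and NK cell genes summed to 13.6 to 15.1 CPM in KO livers with WT HMGB1 under MO, against 9.05 to 12.0 CPM in wild-type MO livers, which did not overlap, and Cd3e rose by 1.29 (adjusted p = 0.0334). Among these KO livers Cd3e was highest in replicate 1, at 1.77 CPM. Tcf7 was highest in replicate 3, at 16.0 CPM, where Cd3e was 1.03 CPM. Of the 14 pericentral genes, 4 were called higher and 2 lower under CCl4, and 0 higher and 5 lower under MO. Glul averaged 821 ± 63.9 CPM in KO livers with WT HMGB1 under MO and 1515 ± 220.5 CPM in wild-type MO livers (SD, n = 3; log2 fold change -0.88, SE 0.22, adjusted p = 0.00649), so it was lower where Tbx3, Lgr5 and Rnf43 had higher means. The part of other cells, and of the library features of wild-type MO livers, in the changes of the 10 genes was not tested.

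Within KO livers, Δ[O] HMGB1 and WT HMGB1 gave no called difference in the 10 genes. Under CCl4, 0 were called by edgeR or DESeq2, against 2.31% of all genes by edgeR, and 1 had an unadjusted p under 0.05, against 15.1% of all genes. This was Nkd1, with 4.49, 4.76, 4.60 and 3.74 CPM with Δ[O] HMGB1, against 4.35, 6.00, 7.16 and 6.12 CPM with WT HMGB1. Its groups overlapped (log2 fold change -0.42, SE 0.18, adjusted p = 0.266). Under MO, 0 were called by edgeR or DESeq2, against 0% of all genes by edgeR, and 0 had an unadjusted p under 0.05, against 11.0% of all genes. With the replicate block, whose numbers were taken to pair these samples, edgeR called 4 genes of all tested under MO. Under CCl4 the 95% intervals of the fold were 0.491 to 1.62 for Tbx3, 0.738 to 2.08 for Lgr5, 0.585 to 1.36 for Axin2 and 0.750 to 1.09 for Rnf43. Each interval included no change, and the other folds within it were not excluded either. The difference of the CCl4 responses, with Δ[O] HMGB1 minus with WT HMGB1, was called for 0 of the 10 genes by edgeR or DESeq2, against 0% of all genes by edgeR, with 0 at an unadjusted p under 0.05, against 14.8% of all genes. Lgr5 had the largest estimate, 0.84 (SE 0.54, adjusted p = 0.461).

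In resolution, with BSA, Tcf7 was lower than in fibrosis. It held 5.54, 5.20 and 6.90 CPM in resolving livers, against 17.2, 22.7 and 16.3 CPM in fibrotic livers. Every resolving library lay below every fibrotic library, with a mean 3.19-fold lower (log2 fold change -1.68, SE 0.35, adjusted p = 0.0183). Of the 10 genes only Tcf7 was called, against 9.00% of all genes, and it was not called without resolving replicate 1 (adjusted p = 0.0812), 2 (0.0993) or 3 (0.0732), where its log2 fold change was -1.61, -1.57 and -1.78. The median log2 fold change of the 10 genes was -0.20, beside -0.04 over all genes.

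**Figure D5:**
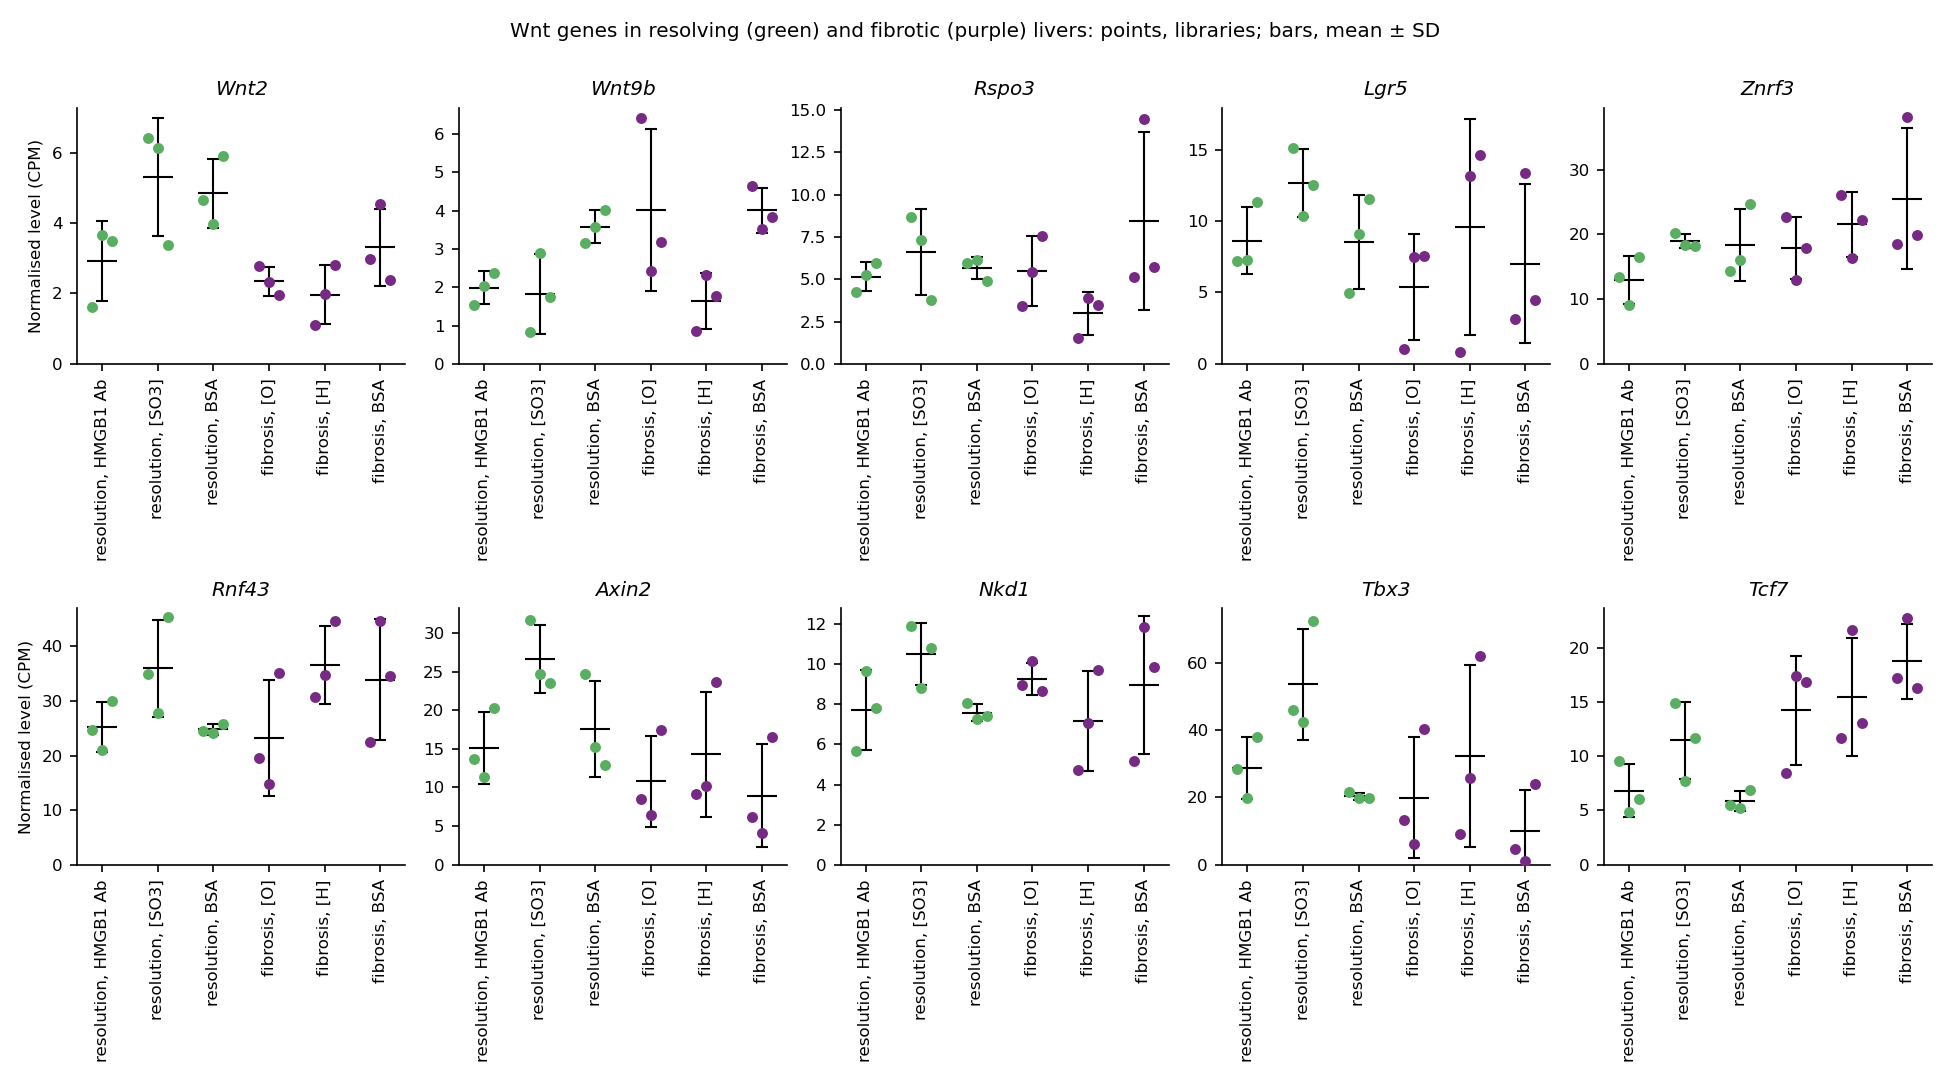
Normalised level (CPM, linear axis from 0) of each of the 10 genes in the 18 resolving (green) and fibrotic (purple) livers, with 1 point per library and bars for mean ± SD. Tcf7 in resolving BSA livers lies between 5.20 and 6.90 CPM, below all fibrotic BSA livers, while Tbx3 spreads widely among fibrotic livers.

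Axin2 held 24.7, 15.2 and 12.9 CPM in resolving BSA livers, against 6.18, 4.13 and 16.5 CPM in fibrotic BSA livers. Fibrotic replicate 3 lay within the resolving range, and the difference was not called (log2 fold change 0.97, SE 0.50, adjusted p = 0.195); without that library it was called (log2 fold change 1.77, adjusted p = 0.0399). Tbx3 held 21.5, 19.8 and 19.7 CPM in resolving BSA livers, against 4.72, 1.11 and 23.9 CPM in fibrotic BSA livers. The fibrotic values spanned the resolving ones (log2 fold change 1.02, SE 0.83, adjusted p = 0.406), and the log2 fold change was 2.75 without fibrotic replicate 3 (adjusted p = 0.0528) and 0.50 without replicate 2 (0.767). Among the ligands, Wnt2 averaged 4.84 ± 0.982 CPM in resolving BSA livers and 3.31 ± 1.10 CPM in fibrotic BSA livers, and Wnt9b 3.58 ± 0.433 and 4.01 ± 0.582 CPM (SD, n = 3 each), with adjusted p = 0.345 and 0.818. Rspo3 held 5.96, 6.13 and 4.89 CPM in resolving BSA livers, against 5.12, 14.5 and 5.73 CPM in fibrotic BSA livers, where replicate 2 was the high library. Its log2 fold change was -0.57 (adjusted p = 0.386) and 0.07 without fibrotic replicate 2, so the direction rested on that library.

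The receptor, the ubiquitin ligases and Nkd1 did not differ beyond their spread between resolving and fibrotic BSA livers. Lgr5 held 5.00, 9.08 and 11.5 CPM in resolving BSA livers, against 3.12, 13.4 and 4.50 CPM in fibrotic BSA livers, where replicate 2, the lowest in Tbx3, was the highest in Lgr5. Its groups overlapped (log2 fold change 0.29, SE 0.78, adjusted p = 0.822; 1.16 without fibrotic replicate 2). Rnf43 held 24.4, 24.1 and 25.8 CPM in resolving BSA livers, against 22.5, 44.6 and 34.6 CPM in fibrotic BSA livers (log2 fold change -0.45, SE 0.30, adjusted p = 0.312). Znrf3, which acts with Rnf43 on Frizzled, held 14.3, 16.1 and 24.7 CPM in resolving BSA livers, against 18.5, 38.1 and 20 CPM in fibrotic BSA livers. The log2 fold change of Znrf3 was -0.48 (adjusted p = 0.302), and that of Nkd1, with 8.08, 7.30 and 7.40 CPM in resolving and 5.18, 11.9 and 9.87 CPM in fibrotic BSA livers, was -0.24 (adjusted p = 0.620).

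The pericentral genes that define zonation were higher in resolving than in fibrotic BSA livers where they passed the test, with 2 of 13 called higher and 0 lower. Glul averaged 952 ± 75.6 CPM in resolving and 135 ± 53.7 CPM in fibrotic BSA livers (SD, n = 3 each; log2 fold change 2.82, SE 0.83, adjusted p = 0.0460), and Slc1a2 102 ± 37.6 and 1.68 ± 0.145 CPM (log2 fold change 5.91, SE 1.64, adjusted p = 0.0398). Cyp2e1 averaged 2660.1 ± 421 and 839 ± 450.4 CPM without passing it (adjusted p = 0.127). Of the other Wnt genes, 0 of 7 tested ligands, 0 of 13 receptors and 0 of 20 intracellular genes were called by edgeR, with 4, 2 and 4 at an unadjusted p under 0.05, a level that 31.6% of all genes reached, and 1 of 6 inhibitors was called: Frzb fell by 2.11 (adjusted p = 0.0243). Beside the fall of Tcf7, 1 of 11 T and NK cell genes was called lower (Il7r, log2 fold change -1.97, SE 0.49, adjusted p = 0.0273), and the list summed to 14.2 to 14.5 CPM in resolving livers, against 15.9 to 39.6 CPM in fibrotic livers. Cd3e held 0.890, 0.699 and 1.00 CPM in resolving livers, against 0.798, 1.01 and 1.02 CPM in fibrotic livers, with overlap. Over all genes tested, 9.00% were called in this comparison. Cell cycle genes fell in 10 of 12, mesothelium genes in 4 of 4, stellate cell genes in 3 of 17 and macrophage genes in 3 of 12. Their part in the change of Tcf7 was not tested.

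The HMGB1 forms given to fibrotic livers gave no called difference in the 10 genes. Of the 10, 0 were called by edgeR or DESeq2 for [H] HMGB1 against BSA, for [O] HMGB1 against BSA and for [O] HMGB1 against [H] HMGB1, in each case against 0% of all genes by edgeR, with 2, 0 and 2 at an unadjusted p under 0.05, against 10.7%, 5.39% and 10.5% of all genes. With the replicate block, whose numbers were taken to pair these samples, edgeR called 1 gene of all tested for [O] HMGB1 against [H] HMGB1. Without BSA replicate 2, BSA replicate 3 or [H] HMGB1 replicate 3, edgeR again called 0 of the 10 genes in each of these comparisons, with between 0 and 4 at an unadjusted p under 0.05. For [H] HMGB1 against BSA the genes at that level were Rspo3 and Wnt9b. Rspo3 held 1.54, 3.89 and 3.50 CPM with [H] HMGB1, against 5.12, 14.5 and 5.73 CPM with BSA. The groups did not overlap (log2 fold change -1.48, SE 0.45, unadjusted p = 0.00457, adjusted p = 0.414), and without BSA replicate 2 the log2 fold change was -0.87. Wnt9b held 0.858, 2.31 and 1.78 CPM with [H] HMGB1, against 4.65, 3.52 and 3.85 CPM with BSA. These did not overlap either (log2 fold change -1.27, unadjusted p = 0.0132, adjusted p = 0.414). With [O] HMGB1 the same genes held 3.42, 5.44 and 7.59 CPM of Rspo3 and 6.41, 2.43 and 3.18 CPM of Wnt9b. For [O] HMGB1 against [H] HMGB1, Wnt9b and Rnf43 had unadjusted p of 0.0134 and 0.0430, with log2 fold changes of 1.26 and -0.66 and adjusted p = 0.266 and 0.442; Rnf43 without [H] HMGB1 replicate 3 gave -0.50.

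Tbx3 and Axin2 varied widely within each fibrotic group. Tbx3 held 13.2, 6.20 and 40.3 CPM with [O] HMGB1 and 9.18, 25.7 and 62.0 CPM with [H] HMGB1, against the BSA values given above. Its highest library was [H] HMGB1 replicate 3, the liver with high Glul and Cyp2e1, and its log2 fold change against BSA was 1.69 for [H] HMGB1 (SE 0.84, adjusted p = 0.475) and 0.80 without that library. It was 1.16 without BSA replicate 2 and 3.42 without BSA replicate 3 (adjusted p = 0.315). For [O] HMGB1 it was 0.99 (SE 0.83, adjusted p = 0.899), 0.47 without BSA replicate 2 and 2.71 without BSA replicate 3 (adjusted p = 0.237). Axin2 held 8.47, 6.43 and 17.4 CPM with [O] HMGB1 and 9.09, 10.2 and 23.7 CPM with [H] HMGB1, again with replicate 3 the highest in each group. Its log2 fold changes against BSA were 0.67 for [H] HMGB1 and 0.26 for [O] HMGB1 (adjusted p = 0.620 and 0.945), and 0.10 for [H] HMGB1 without its replicate 3. Without BSA replicate 3 they were 1.47 and 1.05 (adjusted p = 0.332 and 0.385), and without BSA replicate 2 0.33 and -0.07, for [H] HMGB1 and [O] HMGB1.

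Lgr5 and Tcf7 overlapped between all 3 fibrotic groups. Lgr5 held 1.07, 7.47 and 7.59 CPM with [O] HMGB1 and 0.858, 13.2 and 14.6 CPM with [H] HMGB1. Single libraries of both groups lay far below the rest, [O] HMGB1 replicate 1 and [H] HMGB1 replicate 1. Log2 fold changes of Lgr5 against BSA were -0.36 for [O] HMGB1 and 0.47 for [H] HMGB1 (adjusted p = 0.949 and 0.836), and 0.51 and 1.32 without BSA replicate 2. Tcf7 held 8.47, 17.4 and 16.9 CPM with [O] HMGB1, 11.7, 21.7 and 13.1 CPM with [H] HMGB1 and 17.2, 22.7 and 16.3 CPM with BSA. Log2 fold changes of Tcf7 against BSA were -0.39 for [O] HMGB1 and -0.27 for [H] HMGB1 (adjusted p = 0.899 and 0.769). Rnf43 averaged 23.2 ± 10.6 CPM with [O] HMGB1, 36.7 ± 7.15 CPM with [H] HMGB1 and 33.9 ± 11.0 CPM with BSA (SD, n = 3 each). Znrf3 averaged 17.9 ± 4.80, 21.6 ± 4.97 and 25.5 ± 10.9 CPM, and Nkd1 9.28 ± 0.799, 7.17 ± 2.51 and 8.98 ± 3.43 CPM, in that order of groups. Wnt2 held 2.78, 2.32 and 1.94 CPM with [O] HMGB1, 1.12, 1.98 and 2.80 CPM with [H] HMGB1 and 2.99, 4.53 and 2.39 CPM with BSA. Wnt2, Wnt9b and Rspo3, whose known source is endothelial, had their lowest means of the 3 fibrotic groups with [H] HMGB1. Liver endothelium genes summed to 796 to 1005 CPM with [O] HMGB1, 354 to 693 CPM with [H] HMGB1 and 655 to 1162 CPM with BSA, and the [H] HMGB1 and BSA ranges overlapped. Of the 20 genes, 0 were called by edgeR for [H] HMGB1 against BSA, with 10 at an unadjusted p under 0.05. Sums of other lists were lower with [H] HMGB1 than with BSA as well, without overlap. Stellate cell genes summed to 572 to 896 against 931 to 1852 CPM, and macrophage genes to 830 to 1077 against 1222 to 1867 CPM. The part of endothelial or other cells in these values was not tested.

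In resolving livers, HMGB1 Ab and [SO3] HMGB1 likewise gave no called difference in the 10 genes. Of the 10, 0 were called by edgeR or DESeq2 for HMGB1 Ab against BSA, for [SO3] HMGB1 against BSA and for HMGB1 Ab against [SO3] HMGB1, in each case against 0% of all genes by edgeR, with 0, 1 and 2 at an unadjusted p under 0.05, against 2.07%, 6.02% and 3.83% of all genes. Tcf7 held 14.9, 7.74 and 11.7 CPM with [SO3] HMGB1, against 5.54, 5.20 and 6.90 CPM with BSA. The groups did not overlap (log2 fold change 0.97, SE 0.35, unadjusted p = 0.0135, adjusted p = 0.576). Tbx3 held 46.0, 42.3 and 72.4 CPM with [SO3] HMGB1, against 21.5, 19.8 and 19.7 CPM with BSA. Each [SO3] HMGB1 library exceeded each BSA library, with a mean 2.63-fold higher. The difference was not called in the fit of all 18 livers (log2 fold change 1.40, SE 0.82, adjusted p = 0.929) and was called in a fit of these 2 groups alone (adjusted p = 0.0358), which called 49 of all genes. Tbx3 held 28.5, 19.7 and 38.0 CPM with HMGB1 Ab, which overlapped BSA (adjusted p = 1.00). For HMGB1 Ab against [SO3] HMGB1, Wnt2 and Tcf7 had unadjusted p of 0.0454 and 0.0475, with log2 fold changes of -0.87 and -0.74 and overlapping groups. Wnt2 held 1.61, 3.65 and 3.48 CPM with HMGB1 Ab, 6.41, 6.13 and 3.36 CPM with [SO3] HMGB1 and 4.65, 3.96 and 5.90 CPM with BSA. The HMGB1 Ab and BSA values of Wnt2 did not overlap, but the difference was not called (log2 fold change -0.73, adjusted p = 1.00). Wnt9b held 1.53, 2.04 and 2.38 CPM with HMGB1 Ab and 0.824, 2.90 and 1.73 CPM with [SO3] HMGB1, each group below all BSA values of 3.15, 3.57 and 4.02 CPM (log2 fold changes -0.85 and -0.98, unadjusted p = 0.0837 and 0.0510).

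Axin2, Nkd1 and Rnf43 gave no called difference between the resolving groups, though some groups did not overlap. With n = 3 in each group such separation can arise by chance, and its share over all genes was not counted. Axin2 held 13.7, 11.4 and 20.4 CPM with HMGB1 Ab and 31.8, 24.7 and 23.5 CPM with [SO3] HMGB1, which did not overlap each other but both overlapped BSA (log2 fold change of HMGB1 Ab against [SO3] HMGB1 -0.82, adjusted p = 1.00). Nkd1 held 11.9, 8.82 and 10.8 CPM with [SO3] HMGB1, against 8.08, 7.30 and 7.40 CPM with BSA, and Rnf43 34.9, 27.7 and 45.4 CPM with [SO3] HMGB1, against 24.4, 24.1 and 25.8 CPM with BSA. Neither pair overlapped, and the log2 fold changes were 0.47 and 0.54 (unadjusted p = 0.150 and 0.0939, adjusted p = 0.969 and 0.910). Lgr5 averaged 8.61 ± 2.35 CPM with HMGB1 Ab, 12.7 ± 2.39 CPM with [SO3] HMGB1 and 8.54 ± 3.31 CPM with BSA, and Rspo3 5.15 ± 0.864, 6.59 ± 2.54 and 5.66 ± 0.670 CPM (SD, n = 3 each). Glul, for comparison, held 241, 751 and 1093 CPM with HMGB1 Ab, 1020.4, 1067 and 1280.0 CPM with [SO3] HMGB1 and 883, 942 and 1033 CPM with BSA, with the first HMGB1 Ab library the lowest. The Oat, Cyp1a2, Cyp2f2 and Ctnnb1 differences between resolving groups did not pass the test, with log2 fold changes between -1.33 and 1.46.

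The genes whose log2 CPM followed Axin2, Wnt2 and Tcf7 most closely over the 21 CCl4 and MO livers were found by Pearson's r, a description of livers that share treatment groups. Axin2 was followed by Elac1 (r = 0.868), Plekha6 (0.867) and Top1mt (0.843), and over the 18 fibrotic and resolving livers these gave r = 0.796, 0.835 and 0.708. Tcf7 was followed by Zfp704 (0.888), Zfp41 (0.885) and Fchsd1 (0.881), which gave 0.748, -0.278 and 0.789 over the 18 livers. Wnt2 was followed by Serpina12 (0.796), Slc52a2 (0.785) and Ada (0.762), which gave 0.124, -0.196 and 0.171. The Axin2 genes and 2 of the 3 Tcf7 genes thus kept a positive r in the other table, and the Wnt2 genes had r near 0 there.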

How the data were processed

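RNA of whole mouse liver was sequenced in 39 libraries, of the type TruSeq Stranded mRNA per the labels' protocols. The authors deposited raw counts per gene in 2 tables, with mm10 named as the build per the submitters' processing notes. How reads were aligned, counted and assigned by strand is not given in the sources used here, so reads of overlapping genes may be shared. Rows that named no gene were left out of library sizes. The libraries of cultured cells in the series were not used here, and 0 value columns of the liver tables went unused.

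Each table was fitted by itself with edgeR 4.0.16 (robust quasi-likelihood, TMM factors, all groups of the table in one model, R 4.3.3), after low counts were removed by filterByExpr (minimum count 10, minimum total 15). CPM used TMM-scaled library sizes, and standard errors are those of the log2 fold change. DESeq2 1.42.0, RLE factors, no filter, a fit of only the groups compared, a replicate block and leaving out each library were run as alternatives. The fit was tested on simulated data first. No replicate pair agreed within sampling noise, with a lowest chi-square per degree of freedom of 11.5 for CCl4 and MO livers and 10.8 for fibrotic and resolving livers.

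Replicate numbers in the labels were taken to pair samples where every same-numbered pair deviated together from its group means (r over 0.1). This held for Δ[O] HMGB1 against WT HMGB1 under CCl4 (0.108 to 0.261) and MO (0.289 to 0.454), for KO livers with WT HMGB1 against wild type under CCl4 (0.116 to 0.313), and for [H] HMGB1 against BSA (0.187 to 0.521), [O] HMGB1 against BSA (0.474 to 0.595) and [O] HMGB1 against [H] HMGB1 (0.274 to 0.708) in fibrotic livers. Pairing is not named in the labels. The block was fitted over all groups of a table, also those that did not meet this rule.

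The 10 genes and all gene lists were chosen with earlier results of these data known. Other genes named were drawn from the called genes with the largest changes, at most 4 from each list in comparisons where 1 of the 10 genes was called, from Glul, Oat, Cyp2e1, Cyp1a2, Cyp2f2 and Ctnnb1, and from the 3 genes with the highest r to Axin2, Wnt2 and Tcf7. Exceptions chosen after their values were seen are Sox9, Mki67, Slc1a2 and Cd3e in single libraries or groups, and Hmgb1, which was checked as the deleted gene.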

Additional observations from a re-analysis of the deposited data

Results flagged for a closer look

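The 10 genes in the groups of 4 libraries gave 30 sets of values, and in 4 of them the highest or lowest library lay far from the other 3; chance gives about 1 in 20 such sets. Wnt2 was 2.31 CPM in CCl4 replicate 1 of KO livers with WT HMGB1, the highest of 4. Rnf43 was 16.0 CPM in CCl4 replicate 2 of KO livers with Δ[O] HMGB1, the lowest of 4. Axin2 was 3.92 CPM in CCl4 replicate 1 of KO livers with WT HMGB1, where Tbx3 and Cyp2e1 were also lowest. Tbx3 was 9.56 CPM in wild-type CCl4 replicate 4, where Cyp2e1 was also highest.

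The response of Lgr5 to CCl4 differed between KO livers with WT HMGB1 and wild-type livers, by -2.39 on the log2 scale (edgeR, adjusted p = 0.00757), and so did that of Tcf7, by -1.36 (adjusted p = 0.0275). Both differences use the wild-type MO libraries, whose TMM factors of 0.754 to 0.810 stood apart from the rest. The part of that feature in them was not tested.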

How the results depend on the processing

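Of the 10 genes, the number called changed by no more than 1.5 times in most alternatives, and no log2 fold change of a called gene changed sign. For [SO3] HMGB1 against BSA in resolving liver, a fit of only those groups called 1 gene (Tbx3) where the fit of all 18 livers called 0, and over all genes tested the fits called 49 and 0. Leaving out each library in turn gave 0 to 2 called genes for resolution against fibrosis, where the same fits called 0 to 2377 of all genes (1214 with every library), and 1 to 2 (1213 to 2480 of all genes, and 1906 with every library) for the difference of the CCl4 responses between KO livers with WT HMGB1 and wild type. It gave 2 to 4 genes for CCl4 against MO in KO livers with Δ[O] HMGB1, 2 to 3 in KO livers with WT HMGB1 and 2 to 4 in wild type (2127 to 4039, 5230 to 6899 and 5543 to 6707 of all genes). For KO livers with WT HMGB1 against wild type it gave 3 to 5 under CCl4 and 4 to 5 under MO. The same fits called 3168 to 3783 and 2320 to 3467 of all genes, against 4069 and 3423 with every library. In a leave-one-out fit that left 2 libraries in a group, the spread was pooled over the table. DESeq2 called 4, 3 and 4 of the 10 genes for CCl4 against MO in KO livers with Δ[O] HMGB1, KO livers with WT HMGB1 and wild type. Over all genes tested it called 3631, 6827 and 6686 there, where edgeR called 3425, 6685 and 6542. It called 8, 5 and 278 of all genes for the 3 fibrosis comparisons ([H] HMGB1 against BSA, [O] HMGB1 against BSA and [O] HMGB1 against [H] HMGB1). For the resolution comparisons (HMGB1 Ab against BSA, [SO3] HMGB1 against BSA and HMGB1 Ab against [SO3] HMGB1) it called 7, 79 and 30. In all of these fibrosis and resolution comparisons edgeR called 0. The cause of these differences was not tested.

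With a replicate block, Axin2 was called for CCl4 against MO, with log2 fold changes of -0.92, -0.83 and -1.07 in KO livers with Δ[O] HMGB1, KO livers with WT HMGB1 and wild type, Tbx3 was called for KO livers with WT HMGB1 against wild type under MO (0.98, adjusted p = 0.0269), and Wnt2 (CCl4 against MO in wild type, adjusted p = 0.0606) and Rspo3 (KO livers with WT HMGB1 against wild type under MO) were not called. In these comparisons the samples share only a number: their r did not exceed 0.1 in every pair, and 0 of 3 CCl4 and MO pairs with Δ[O] HMGB1 and 2 of 3 in wild type correlated best with their own number, as did 0 of 3 pairs between KO livers with WT HMGB1 and wild type under MO. The block changed no call of the 10 genes in resolving livers or between resolution and fibrosis. Where the numbers were taken to pair the samples, the block changed calls of the 10 genes only for KO livers with WT HMGB1 against wild type under CCl4, as given beside that result.

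Counts limit the ligands most: the lowest libraries held 9 counts of Wnt9b and 13 of Wnt2.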
